A study of Mus musculus with 8 samples.

Results

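The genes described here encode the ion channels and transporters that turn an odour signal into a current in the cilia of olfactory sensory neurons. They were 8 rows of the deposited read count table, of 25913 in all, chosen by name, as genes of this role: Cnga2, Cnga4 and Cngb1, the subunits of the olfactory cyclic nucleotide-gated channel, the chloride channel genes Ano2 and Best2, the chloride loader Slc12a2, the calcium extruder Slc24a4, and Stoml3, a stomatin-like protein of olfactory cilia. Poly(A) RNA of dissected olfactory epithelium, from 40-week-old C57BL/6J mice, was sequenced in a stranded protocol. The series concerns homozygous, tissue-specific loss of Igf1r, which encodes a growth factor receptor. Its design text speaks of olfactory sensory neurons, whereas the source of every library is olfactory epithelium, which holds other cell types too. The groups are named by their library titles, 4 libraries titled OMP_IGF1R (replicates 11, 12, 17 and 18) and 4 titled IGF1R_flfl (replicates 1, 2, 13 and 3). Titles and genotypes contradict each other in these labels: OMPflfl (Ctrl) is the genotype entered for the OMP_IGF1R titles and OMPIGF1 (KO) the one entered for the IGF1R_flfl titles. Each fold change below is of libraries titled OMP_IGF1R over libraries titled IGF1R_flfl, so which genotype was higher or lower cannot be said until that is settled. The numbers that open the titles also run in separate ranges for the groups, so a batch that followed them and the group cannot be told apart. The labels name no Cre line and no floxed exon, and do not say that libraries came from separate animals. The p-values therefore reflect the scatter of these libraries alone, which may be technical.

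When an odorant binds its receptor, a G protein activates adenylyl cyclase and cyclic AMP opens the cyclic nucleotide-gated channel of the cilium. Calcium that enters through this channel opens Ano2, a calcium-activated chloride channel, and chloride leaves the cell because it was loaded to a high level beforehand, which adds to the depolarisation. Calcium is then exported by a sodium/potassium/calcium exchanger, and feedback by calcium closes the cation channel during adaptation. In the mouse, Cnga2 forms a functional channel on its own, while Cnga4 and Cngb1 shape its sensitivity, its adaptation and its transport to the cilium.

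All coordinates are of the GRCm38 build, as the deposited table lists the genes. Cnga2 (ENSMUSG00000005864) lies on chromosome X from 71991849 to 72010218, Cnga4 (ENSMUSG00000030897) on chromosome 7 from 105404568 to 105408738, and Ano2 (ENSMUSG00000038115) on chromosome 6 from 125690419 to 126040126. Stoml3 (ENSMUSG00000027744) lies on chromosome 3 from 53488727 to 53508502 and Slc24a4 (ENSMUSG00000041771) on chromosome 12 from 102128733 to 102267091. Best2 (ENSMUSG00000052819) and Cngb1 (ENSMUSG00000031789) are both on the minus strand of chromosome 8, from 85007202 to 85014408 and from 95239045 to 95284181. The GENCODE M21 model of Cngb1 runs on to 95306585, so the listed interval leaves out the first exons of the long form known from rod photoreceptors. The olfactory form of Cngb1 is known to lack the amino-terminal part that the rod form carries.

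Several of these genes moved together, so the 250 bases before their start sites are printed for the 4 members that fell and have a RefSeq window (build GRCm38.p6) at or near the listed start, and for Slc24a4, which did not pass the test. The RefSeq starts of Stoml3 and Slc24a4 lie shortly before the listed ones. RefSeq windows (250 bases before to 50 after a start) were found for 6 of the 8 members, 8 windows in all. Motifs were searched on both strands. The Olf/Ebf motif, which is CCCNNGGG with a T before it and an A after it, was in 0 of the 8 windows and in 0.904% of all 32851 windows, and TAATTA, a homeodomain motif, was in 0 of 8 and in 5.29%. CCCNNGGG alone, which lies inside the first motif and was chosen after the windows were seen, was in 5 of the 8 windows, from 5 of the 6 genes, and in 13.7% of all windows. Its matches began 66 bases before the start of Cnga2, 109 before that of Slc24a4, 67 before a downstream start of Ano2 and 129 before the start of the long form of Cngb1, and at base 25 after the start of Cnga4. The capitals below mark CCCNNGGG, which falls within the printed bases of Cnga2 and Slc24a4. A match is a description of letters, not a binding site.
Cnga2 (chrX:71991599-71991848, + strand): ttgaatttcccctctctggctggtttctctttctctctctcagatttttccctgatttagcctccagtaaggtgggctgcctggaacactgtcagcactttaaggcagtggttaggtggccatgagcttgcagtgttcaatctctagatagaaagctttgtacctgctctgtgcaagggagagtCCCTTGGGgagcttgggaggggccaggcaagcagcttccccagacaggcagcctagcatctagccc
Cnga4 (chr7:105404318-105404567, + strand): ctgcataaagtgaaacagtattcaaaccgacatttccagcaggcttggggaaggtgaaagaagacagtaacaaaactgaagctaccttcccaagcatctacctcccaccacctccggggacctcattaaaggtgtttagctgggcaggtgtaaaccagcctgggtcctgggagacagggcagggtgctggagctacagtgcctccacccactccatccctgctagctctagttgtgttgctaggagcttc
Ano2 (chr6:125690169-125690418, + strand): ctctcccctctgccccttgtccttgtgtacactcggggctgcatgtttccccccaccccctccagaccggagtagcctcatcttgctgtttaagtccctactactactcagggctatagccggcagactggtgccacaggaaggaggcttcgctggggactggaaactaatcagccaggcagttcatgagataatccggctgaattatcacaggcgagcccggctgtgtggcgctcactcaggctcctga
Stoml3 (chr3:53488457-53488706, + strand): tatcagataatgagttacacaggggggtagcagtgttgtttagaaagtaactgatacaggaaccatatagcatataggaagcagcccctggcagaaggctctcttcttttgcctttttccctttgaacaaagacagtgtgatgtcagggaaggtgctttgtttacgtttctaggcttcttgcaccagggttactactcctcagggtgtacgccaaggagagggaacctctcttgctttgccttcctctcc
Slc24a4 (chr12:102128477-102128726, + strand): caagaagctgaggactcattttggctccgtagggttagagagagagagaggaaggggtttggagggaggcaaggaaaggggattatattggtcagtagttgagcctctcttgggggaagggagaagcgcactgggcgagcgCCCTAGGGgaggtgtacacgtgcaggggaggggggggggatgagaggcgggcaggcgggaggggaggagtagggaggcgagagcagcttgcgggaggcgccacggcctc

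Libraries held 18802471 to 27793375 counted reads, and the 7 members other than Best2 had 2003 to 87102 reads in each library. Levels are CPM, read counts scaled to a common library total, on library sizes scaled by the trimmed mean of M values (TMM), and tests are edgeR's quasi-likelihood test, with p-values adjusted over the 17381 genes tested and a threshold of 0.05. Igf1r, the targeted gene, stood at 49.6, 43.9, 34.5 and 40.5 CPM in OMP_IGF1R 11, 12, 17 and 18, against 72.9, 55.5, 67.9 and 69.9 CPM in IGF1R_flfl 1, 2, 13 and 3. The groups did not overlap, and the lower one is the one whose entered genotype is the control, an entry that its titles contradict. Reads over a whole gene do not measure a deletion within it. Olfactory bulb and oligodendrocyte genes stood apart in IGF1R_flfl 2 (2139 CPM summed, 257 to 325 CPM in the other libraries of both groups), and skeletal muscle genes in OMP_IGF1R 17 (469 CPM, 4.84 to 15.9 CPM in the others). Results are therefore also given without these 2 libraries.

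Transcripts of the 3 subunits of the cyclic nucleotide-gated channel were all lower in the libraries titled OMP_IGF1R. Cnga2, the main pore-forming subunit, stood at 604, 495, 651 and 580 CPM in OMP_IGF1R 11, 12, 17 and 18, against 964, 810, 831 and 1139 CPM in IGF1R_flfl 1, 2, 13 and 3. The highest library titled OMP_IGF1R was below the lowest titled IGF1R_flfl. Its mean was 583 ± 65.5 CPM in OMP_IGF1R, against 936 ± 152 CPM in IGF1R_flfl (SD, n = 4 each), and it changed in log2 by -0.68 (standard error 0.124, edgeR adjusted p = 0.0128). Cnga4, a modulatory subunit that speeds feedback by calcium, stood at 223, 180, 263 and 210 CPM in OMP_IGF1R 11, 12, 17 and 18, against 459, 381, 396 and 563 CPM in IGF1R_flfl 1, 2, 13 and 3. These groups did not overlap, and the means of 219 ± 34.8 CPM in OMP_IGF1R and 450 ± 82.8 CPM in IGF1R_flfl (SD, n = 4 each) put it at -1.04 in log2 (standard error 0.147, edgeR adjusted p = 0.00575), a level 0.487 times that of IGF1R_flfl. Cngb1, the beta subunit needed for the channel to reach the cilium in mice, stood at 322, 304, 354 and 329 CPM in OMP_IGF1R 11, 12, 17 and 18, against 554, 494, 512 and 691 CPM in IGF1R_flfl 1, 2, 13 and 3. Its groups did not overlap either, and it fell by 0.78 on the log2 scale (standard error 0.108, edgeR adjusted p = 0.00525). In a bulk library, fewer neurons and less RNA per neuron cannot be told apart.

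The chloride channel gene Ano2 fell, and Best2 was close to undetected. Ano2, which carries most of the calcium-activated chloride current of these neurons in mice, stood at 228, 219, 284 and 226 CPM in OMP_IGF1R 11, 12, 17 and 18, against 448, 376, 428 and 531 CPM in IGF1R_flfl 1, 2, 13 and 3. The groups did not overlap, with OMP_IGF1R 17 above the other 3 of its group. Its means of 239 ± 30.0 CPM in OMP_IGF1R and 446 ± 64.5 CPM in IGF1R_flfl (SD, n = 4 each) put it at -0.90 in log2 (standard error 0.119, edgeR adjusted p = 0.00467), and without IGF1R_flfl 2 and OMP_IGF1R 17 the change was -1.05 (standard error 0.0910, edgeR adjusted p = 0.00198). Best2, a bestrophin once proposed as the olfactory chloride channel, had 1, 0, 0 and 0 reads in OMP_IGF1R 11, 12, 17 and 18, against 0, 3, 1 and 0 reads in IGF1R_flfl 1, 2, 13 and 3. With 5 reads in all it did not pass the filter on low counts, and no fold is given. A count of 0 allows up to 3 reads, counting error only. In the libraries at 0 that is 0.108 to 0.132 CPM on library totals without TMM scaling, so a difference was not detectable at this depth.

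**Figure D1:**
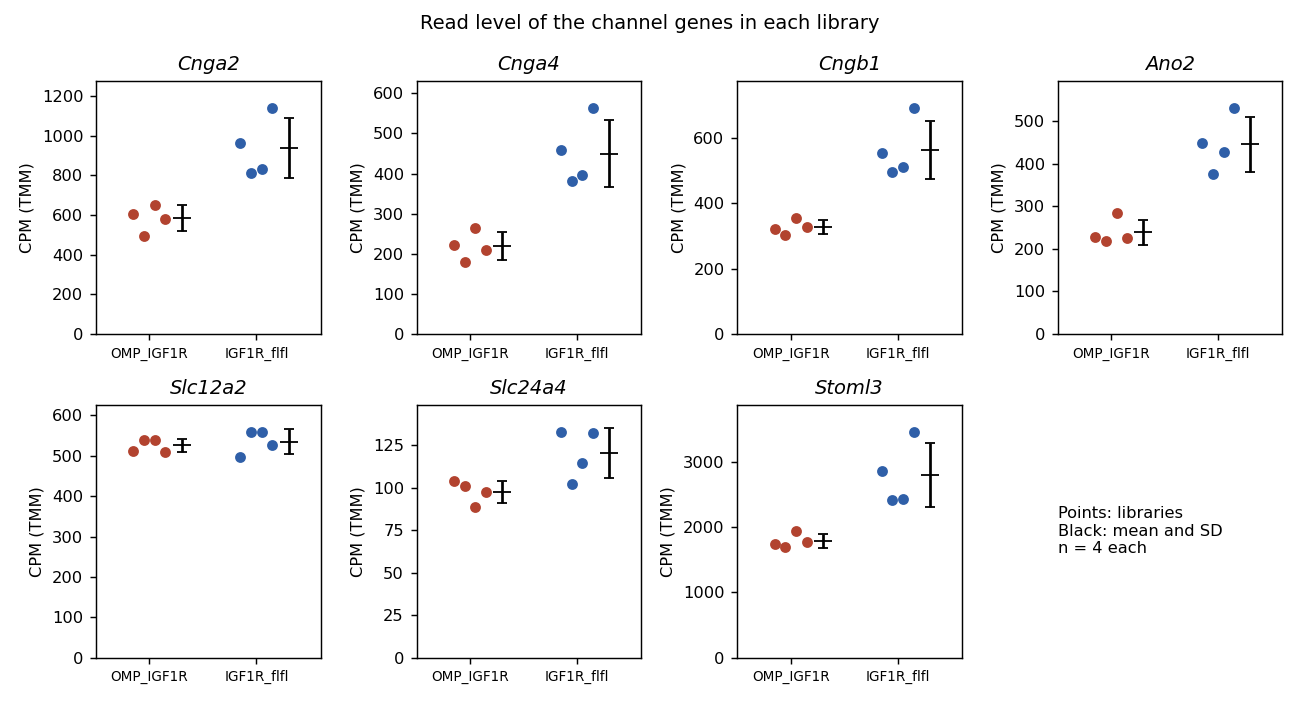
Read level of the 7 tested channel genes, in CPM on TMM-scaled libraries (y axes start at 0), with 1 point per library, OMP_IGF1R on the left and IGF1R_flfl on the right, and the mean and SD in black (n = 4 each). Cnga2, Cnga4, Cngb1, Ano2 and Stoml3 had no overlap between the groups, while Slc12a2 and Slc24a4 overlapped.

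The transporters that set the chloride and calcium gradients did not pass the test. Slc12a2 (ENSMUSG00000024597, chromosome 18, 57878678 to 57946821), the sodium-potassium-chloride cotransporter that loads chloride into the neuron and that many other epithelial cells also use, stood at 512, 540, 540 and 510 CPM in OMP_IGF1R 11, 12, 17 and 18, against 496, 559, 559 and 526 CPM in IGF1R_flfl 1, 2, 13 and 3. The ranges overlapped almost wholly, and the log2 fold change was -0.03 (standard error 0.0627, 95% interval -0.17 to 0.12, edgeR adjusted p = 0.85). Slc24a4, the sodium/potassium/calcium exchanger that ends the odour response in mice, stood at 104, 101, 88.6 and 97.5 CPM in OMP_IGF1R 11, 12, 17 and 18, against 133, 102, 114 and 132 CPM in IGF1R_flfl 1, 2, 13 and 3. OMP_IGF1R 11 lay above IGF1R_flfl 2, and the other libraries were separated. The log2 fold change of -0.30 (standard error 0.0914, 95% interval -0.51 to -0.10) did not pass the test (edgeR adjusted p = 0.0787). It passed without IGF1R_flfl 2 (-0.36, edgeR adjusted p = 0.0224), without IGF1R_flfl 2 and OMP_IGF1R 17 (-0.32, edgeR adjusted p = 0.0378), by DESeq2 (adjusted p = 0.0267) and by limma voom (adjusted p = 0.0354). An antisense gene, Gm16339, overlaps the first bases of Slc24a4 on the other strand, from 102127806 to 102129906 in GENCODE M21. It had 43, 43, 41 and 42 reads in OMP_IGF1R 11, 12, 17 and 18, against 75, 85, 78 and 81 reads in IGF1R_flfl 1, 2, 13 and 3, or -0.81 in log2 (standard error 0.163, edgeR adjusted p = 0.0184), and was looked at after its values were seen. The strand setting of the counting is not given in the sources used here, so reads of the pair may be shared, but the antisense reads are few beside the 2003 to 3669 of Slc24a4.

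Stoml3, an integral membrane protein related to stomatin and found in olfactory cilia, had the most reads of the members and ranked 26 by mean CPM among all genes. It stood at 1744, 1695, 1930 and 1768 CPM in OMP_IGF1R 11, 12, 17 and 18, against 2861, 2418, 2419 and 3454 CPM in IGF1R_flfl 1, 2, 13 and 3, with no overlap. It fell by 0.64 on the log2 scale (standard error 0.114, edgeR adjusted p = 0.0120).

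In all, 5 of the 7 tested members fell and 0 rose. Over the 17381 genes tested, 5.37% fell (933 genes) and 2.83% rose, 8.2% in all. No member was called higher by DESeq2 or limma voom, each of which called 6 members lower, and 6 members had an unadjusted edgeR p under 0.05, all with a lower level. The groups did not overlap, with the libraries titled OMP_IGF1R lower, for 5 of the 7 members and for 10.3% of all genes tested, and with those libraries higher for 0 members and 6.57% of genes. The median log2 fold change was -0.68 over the 7 members and -0.01 over all genes tested. The 5 members that fell kept that call in each of the 8 fits that left out 1 library, with an adjusted p of at most 0.0465. The number of lower genes over all genes was itself 468 without OMP_IGF1R 11, 396 without OMP_IGF1R 12, 380 without OMP_IGF1R 18, 530 without IGF1R_flfl 1 and 540 without IGF1R_flfl 3.

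The 5 genes that fell shared their highest and their lowest library within each group. Among the libraries titled OMP_IGF1R, replicate 17 was the highest and replicate 12 the lowest for all 5, and among those titled IGF1R_flfl, replicate 3 was the highest and replicate 2 the lowest for all 5. For Stoml3, however, IGF1R_flfl 2 and 13 were nearly tied (2418 and 2419 CPM). The order was not particular to the members, since the summed upstream, adaptation and stomatin lists described below had it too. The upstream list ran from 5761 CPM (OMP_IGF1R 12) to 6786 CPM (OMP_IGF1R 17), and from 8293 CPM (IGF1R_flfl 2) to 10968 CPM (IGF1R_flfl 3). The mature neuron list did not share it in OMP_IGF1R, where replicate 12 was its highest (3557 CPM). Its share over all genes was not counted. Slc24a4 differed from the 5 genes most among the libraries titled OMP_IGF1R, where replicate 17 was its lowest and replicate 11 its highest. Among those titled IGF1R_flfl, replicate 2 was its lowest as well (102 CPM). Its highest there was replicate 1, just above replicate 3 (133 and 132 CPM). The lowest library titled IGF1R_flfl for the 5 genes was the one with bulb RNA, and the highest titled OMP_IGF1R was the one with muscle RNA. Their part in this order was not tested. Without both, the log2 fold changes were -0.79 for Cnga2, -1.20 for Cnga4, -0.87 for Cngb1 and -0.73 for Stoml3, and 6 members were called lower.

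**Figure D2:**
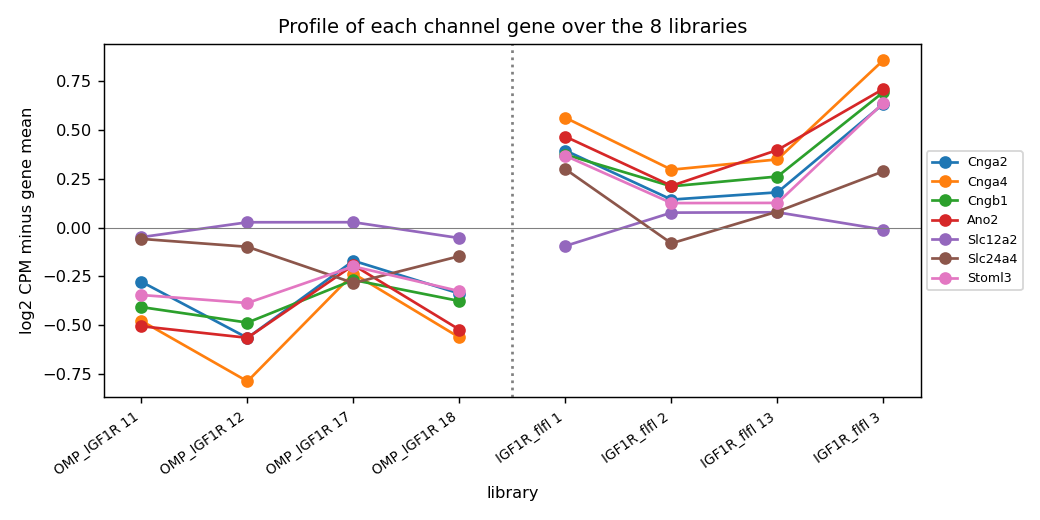
Log2 CPM of each channel gene minus its own mean over the 8 libraries (y axis), with the libraries on the x axis, OMP_IGF1R left of the dotted line and IGF1R_flfl right of it. Lines only join the points of a gene within a group. In OMP_IGF1R 17 and IGF1R_flfl 3 the 5 genes that fell reach their highest values of the group, while Slc12a2 stays near 0.

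Levels of different genes were compared as CPM per kilobase of exon, using GENCODE M21 exons inside each listed interval. In libraries titled OMP_IGF1R the order was Stoml3 (859 ± 49.2 CPM per kb), Cnga2 (188 ± 21.2), Cnga4 (82.3 ± 13.1), Cngb1 (61.9 ± 3.91), Slc12a2 (48.1 ± 1.52), Ano2 (44.4 ± 5.57), Slc24a4 (21.6 ± 1.44) and Best2 at or near 0 (SD, n = 4). In libraries titled IGF1R_flfl it was Stoml3 (1343 ± 236 CPM per kb), Cnga2 (302 ± 49.0), Cnga4 (169 ± 31.2), Cngb1 (106 ± 16.9), Ano2 (82.8 ± 11.98), Slc12a2 (49.0 ± 2.77), Slc24a4 (26.6 ± 3.28) and again Best2 near 0 (SD, n = 4). The orders differ in one place. The ranges of Ano2 and Slc12a2 overlapped in OMP_IGF1R (40.7 to 52.7 and 46.7 to 49.4 CPM per kb), whereas in IGF1R_flfl Ano2 lay above Slc12a2 in every library (69.9 to 98.7 and 45.4 to 51.2 CPM per kb). Cngb1 and Ano2 overlapped in IGF1R_flfl, and no other neighbours in either order overlapped. These levels depend on the exon model, which holds all annotated exons whether or not the neuron uses them.

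Ratios of read counts within a library do not depend on how libraries are scaled, and 4 were compared, each over Cnga2. The ratio of Cnga4 to Cnga2 reads was 0.368, 0.363, 0.404 and 0.362 in OMP_IGF1R 11, 12, 17 and 18, against 0.476, 0.471, 0.476 and 0.495 in IGF1R_flfl 1, 2, 13 and 3. Every library titled OMP_IGF1R was lower, so the reads of the modulatory subunit were fewer relative to those of the pore subunit. The log2 difference was -0.36 (two-sided exact permutation test over 4 and 4 libraries, p = 0.0286, the smallest that 70 arrangements allow, adjusted p = 0.0571 over the 4 ratios). Ano2 to Cnga2 was 0.378, 0.443, 0.436 and 0.389 in OMP_IGF1R 11, 12, 17 and 18, against 0.465, 0.465, 0.515 and 0.467 in IGF1R_flfl 1, 2, 13 and 3, also with no overlap (log2 difference -0.22, two-sided exact permutation test over 4 and 4 libraries, p = 0.0286, adjusted p = 0.0571). Cngb1 to Cnga2 averaged 0.565 ± 0.0366 in OMP_IGF1R and 0.602 ± 0.0190 in IGF1R_flfl (SD, n = 4 each), with overlap (log2 difference -0.09, two-sided exact permutation test, p = 0.143, adjusted p = 0.143). Slc24a4 to Cnga2 averaged 0.170 ± 0.0276 in OMP_IGF1R and 0.129 ± 0.0105 in IGF1R_flfl, with overlap (log2 difference 0.38, two-sided exact permutation test over 4 and 4 libraries, p = 0.0857, adjusted p = 0.114). None of the 4 ratios passed after adjustment. Only Cnga4 and Ano2 were at the smallest p, too few for an adjusted p over the 4 ratios to fall under 0.05. The adjusted values therefore do not decide on these ratios.

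**Figure D3:**
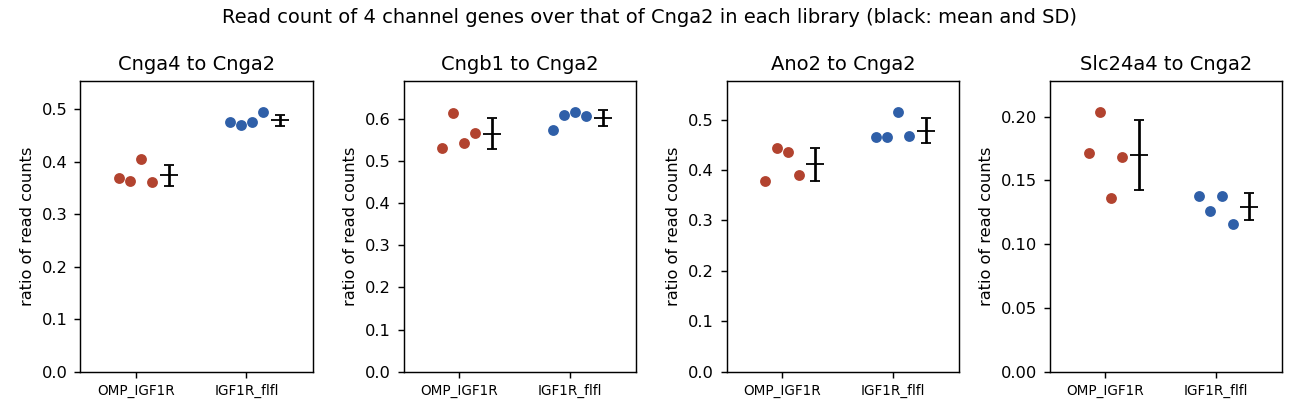
Read count of Cnga4, Cngb1, Ano2 and Slc24a4 over that of Cnga2 (y axes start at 0), with 1 point per library, OMP_IGF1R on the left and IGF1R_flfl on the right, and the mean and SD in black (n = 4 each). Cnga4 (0.362 to 0.404 in OMP_IGF1R against 0.471 to 0.495 in IGF1R_flfl) and Ano2 have separate groups, and Cngb1 and Slc24a4 overlap.

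Markers of mature neurons outside the transduction pathway fell along with the channels. Of 10 such genes (Rtp1 and Rtp2 among them, which are also in the upstream list below), 7 fell and 0 rose by edgeR, DESeq2 and limma voom alike (9 had an unadjusted edgeR p under 0.05, 8 of them lower and 1 higher), with a median log2 fold change of -0.51. The higher one, named after its values were seen, was Trim66 (log2 0.22, edgeR adjusted p = 0.19). The summed level of the list was 3380 to 3557 CPM in OMP_IGF1R, against 4711 to 5768 CPM in IGF1R_flfl. Immature neuron genes stood on the other side: 8 of 12 rose and 0 fell, and their sum was 1818 to 2026 CPM in OMP_IGF1R, against 1313 to 1458 CPM in IGF1R_flfl. Supporting (sustentacular) cell genes had sums of 28866 to 30358 CPM for OMP_IGF1R and 26701 to 32775 CPM for IGF1R_flfl, and none of the 7 genes was called (1 at an unadjusted edgeR p under 0.05, 0 by DESeq2 or limma voom). Ionocyte-like microvillar cell genes, which include transporters, summed to 618 to 859 CPM in OMP_IGF1R and 509 to 658 CPM in IGF1R_flfl. Gland genes ran from 6116 to 23768 CPM in OMP_IGF1R and from 5239 to 28432 CPM in IGF1R_flfl, highest in OMP_IGF1R 17 and IGF1R_flfl 13. By edgeR, 0 of 11 gland, 0 of 5 ionocyte-like, 0 of 5 ensheathing glia, 0 of 4 muscle and 0 of 6 vomeronasal or guanylyl cyclase neuron genes were called, with 4, 2, 0, 3 and 2 at an unadjusted p under 0.05. Of these, DESeq2 called 1 ionocyte-like gene and 1 of the last list higher, and limma voom 1 of the last list lower. Further, 2 of 5 tuft-like microvillar genes rose, and 1 of 7 respiratory ciliated and 1 of 9 bulb genes fell. No marker in these lists was at 0 in every library. The part of cell makeup in the members' differences was not tested.

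With libraries scaled instead to the 10 mature neuron genes, 3 members were called lower and 1 higher. These 10 genes did not move alike under TMM, with log2 fold changes from -0.90 (Snap25) to 0.22 (Trim66). The scaling was not run without IGF1R_flfl 2, the library with bulb RNA. Cnga4 (-0.56, standard error 0.122, edgeR adjusted p = 0.00252), Ano2 (-0.42, standard error 0.0988, edgeR adjusted p = 0.00360) and Cngb1 (-0.30, standard error 0.0833, edgeR adjusted p = 0.00846) stayed lower. Cnga2 (-0.20, 95% interval -0.44 to 0.03) and Stoml3 (-0.16, 95% interval -0.36 to 0.03) lost their calls, at edgeR adjusted p = 0.102 and 0.113. Slc24a4 changed sign to 0.18 (95% interval -0.04 to 0.39, edgeR adjusted p = 0.128), and Slc12a2 was called higher, at 0.44 (standard error 0.0797, edgeR adjusted p = 0.000932). This scaling moved the median of all genes to 0.46 and called 12694 genes, of which 98.7% were higher, and Slc12a2 lay near that median.

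**Figure D4:**
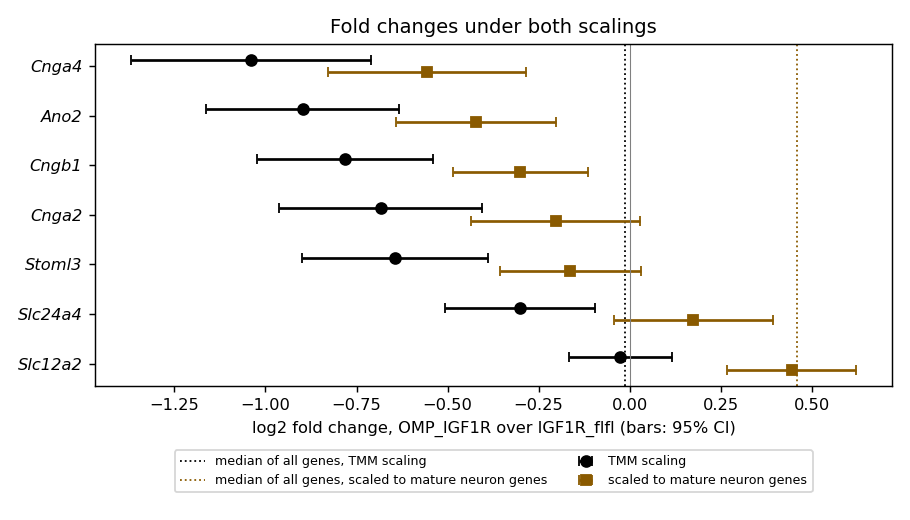
Log2 fold change of OMP_IGF1R over IGF1R_flfl for the 7 tested channel genes with 95% intervals, under TMM scaling (circles) and with libraries scaled to mature neuron genes (squares). Dotted lines are the medians of all genes, at -0.01 and 0.46, and Cnga4, Ano2 and Cngb1 are the genes whose intervals lie below 0 under both.

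The genes that act before the channels fell with them. Of 7 genes that make or assemble the upstream signal, 6 fell and 0 rose, with a median log2 fold change of -0.51 (all 7 had an unadjusted edgeR p under 0.05, and DESeq2 and limma voom called 7 lower). Adcy3, the adenylyl cyclase that makes the cyclic AMP, averaged 987 ± 97.2 CPM in OMP_IGF1R and 1835 ± 302 CPM in IGF1R_flfl (SD, n = 4 each), and it changed in log2 by -0.90 (edgeR adjusted p = 0.00498), beside -0.90 for Ano2. Gnal, the olfactory G protein alpha subunit, changed by -0.61, Gng13, a G protein gamma subunit, by -0.66, and Rtp2, which helps receptors to the surface, by -0.51. Among 9 genes of adaptation and modulation, 4 fell and 0 rose (median -0.24, 5 at an unadjusted edgeR p under 0.05, 0 higher by DESeq2 or limma voom). Those that fell included Omp (-1.45), a cyclic AMP-binding protein of mature neurons, Pde1c (-0.77), the ciliary phosphodiesterase, and Pde4a (-0.49), a phosphodiesterase of the cell body.

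Other routes of calcium export mostly did not pass the test. Of 12 tested genes, 2 fell and 0 rose (median -0.13, 3 at an unadjusted edgeR p under 0.05, 0 higher by DESeq2 or limma voom). Slc24a2, a paralog of Slc24a4, averaged 218 ± 2.17 CPM in OMP_IGF1R and 283 ± 12.9 CPM in IGF1R_flfl (log2 -0.38, standard error 0.0524, edgeR adjusted p = 0.00540), and Slc8a1, a sodium/calcium exchanger, averaged 34.2 ± 1.66 CPM in OMP_IGF1R and 52.3 ± 9.58 CPM in IGF1R_flfl (log2 -0.61, edgeR adjusted p = 0.0131). Atp2a2, the calcium pump of the endoplasmic reticulum, stood at -0.15 (edgeR adjusted p = 0.158), and Slc24a6, a mitochondrial exchanger now named Slc8b1, at 0.27 (edgeR adjusted p = 0.30).

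Of 13 other chloride transporters, channels and their kinases, 0 were called by edgeR, 2 had an unadjusted p under 0.05, and DESeq2 and limma voom each called 1 higher and 0 lower (median -0.03). That gene was Slc12a4, a potassium-chloride cotransporter, at 24.8 ± 0.903 CPM in OMP_IGF1R and 20.5 ± 1.88 CPM in IGF1R_flfl (log2 0.27, edgeR adjusted p = 0.0584, DESeq2 adjusted p = 0.0215). Clcn2, a chloride channel, stood at 0.23 (edgeR adjusted p = 0.139), and Cftr, a chloride channel of ionocytes and glands, at 0.33 (edgeR adjusted p = 0.22). Slc12a5, a neuronal chloride exporter, stood at -1.16 with a wide error (standard error 0.560, edgeR adjusted p = 0.25). It averaged 11.5 ± 1.62 CPM in OMP_IGF1R and 25.8 ± 27.1 CPM in IGF1R_flfl (SD, n = 4 each), where the SD exceeded the mean.

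Paralogs of the channels followed no common direction. Cnga1, Cnga3 and Cngb3, channel subunits known from rods and cones, were too low to be tested, with sums of 0.461 to 1.32 CPM for OMP_IGF1R and 0.267 to 0.793 CPM for IGF1R_flfl. Of 8 tested anoctamin paralogs of Ano2, 0 were called by edgeR and 1 had an unadjusted p under 0.05 (median 0.10), namely Ano7 (log2 1.17, edgeR adjusted p = 0.0554), which DESeq2 and limma voom called higher at adjusted p of 0.0342 and 0.0457 from levels of 1.25 ± 0.281 CPM in OMP_IGF1R and 0.560 ± 0.248 CPM in IGF1R_flfl. Ano10 (0.09), Ano4 (-0.85) and Ano6 (0.11), a lipid scramblase, had edgeR adjusted p of 0.33, 0.34 and 0.41. The libraries titled IGF1R_flfl were widely spread for Ano4 (1.98 ± 0.482 CPM in OMP_IGF1R, 3.56 ± 3.12 CPM in IGF1R_flfl). Best1, the only bestrophin paralog tested, stood at 1.78 ± 0.371 CPM in OMP_IGF1R and 1.97 ± 0.317 CPM in IGF1R_flfl (edgeR adjusted p = 0.71). Stom, the founding member of the stomatin family, fell, at 2191 ± 108 CPM in OMP_IGF1R and 3157 ± 523 CPM in IGF1R_flfl (log2 -0.53, standard error 0.106, edgeR adjusted p = 0.0188), while Stoml1 (-0.18) and Stoml2 (-0.08) did not pass (edgeR adjusted p = 0.23 and 0.46). Over these 8 lists, 13 of 53 tested genes fell and 0 rose by edgeR. Without OMP_IGF1R 18 the number that fell was 8, with Stom, Pde4a, Rtp1 and Ric8b among those no longer called (edgeR adjusted p of 0.0634, 0.0836, 0.0668 and 0.0506).

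**Figure D5:**
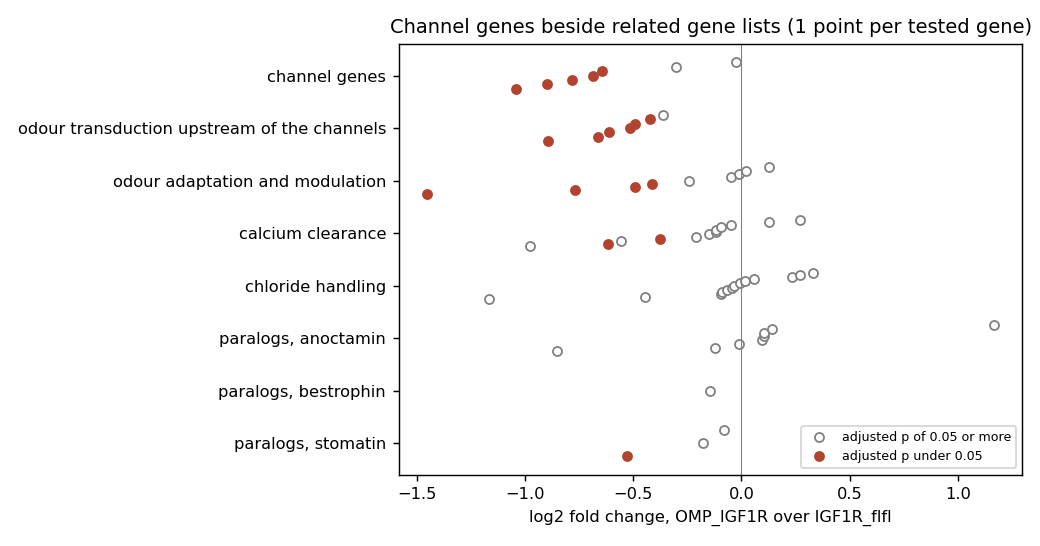
Log2 fold change of OMP_IGF1R over IGF1R_flfl for each tested gene (1 point each) of the channel genes and of 7 related lists, filled where the edgeR adjusted p was under 0.05. Filled points lie left of 0 in the channel, upstream, adaptation, calcium clearance and stomatin rows, and the chloride handling, anoctamin and bestrophin rows have none.

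For each member, the 2 genes with the most similar profile were sought among genes with a mean log2 CPM of at least 3, by the root mean square difference of log2 CPM over the 8 libraries after centring each gene on its mean. Umodl1 (0.0390) and Efr3b (0.0563) came closest to Cngb1, Fam131c (0.0328) and 1700003E16Rik (0.0446) to Stoml3, and Gm12224 (0.0437) and Entpd2 (0.0508), an ectonucleotidase, to Cnga2. Faim2 (0.0869) and Phospho1 (0.0941) came closest to Cnga4, whose profile was less closely matched than those of the other members. The nearest to Ano2 were Cenpo (0.0593) and Adcy3 (0.0698), which overlap each other on chromosome 12, so their reads may be shared. Erf (0.0381) and 4932425I24Rik (0.0404) came closest to Slc24a4, and Lass2 (0.0265) and Cdc123 (0.0268) to Slc12a2, whose profile was nearly flat. Gm12224, Entpd2, Phospho1, 4932425I24Rik, Lass2 and Cdc123 also overlap other counted genes, so their reads may be shared too. Between members the smallest difference was 0.0722 for Cnga2 and Stoml3 and the largest 0.56 for Cnga4 and Slc12a2.

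The authors' deposited table listed the tested members with the same signs. Its headers do not say which group was over which, so the signs do not settle a direction. In the authors' deposited table, the log2 fold changes of Cnga4, Ano2 and Cngb1 were -0.89, -0.80 and -0.71, those of Cnga2 and Stoml3 were -0.61 and -0.58, and that of Slc12a2 was -0.02. DESeq2 here gave larger falls for Cnga4 (-1.03) and Ano2 (-0.89), so the estimates are not alike. Slc24a4 was at -0.27 in the authors' deposited table, with an adjusted p of 0.0250, on the other side of the threshold from the edgeR result.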

How the data were processed

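Libraries were grouped by title, 4 titled OMP_IGF1R and 4 titled IGF1R_flfl, because the genotype field and the titles disagree. Raw counts per gene, whole numbers by their values, were deposited in 1 table. The submitters' processing notes name DESeq2, SAMtools 1.2, TopHat2 2.0.14 and Trim Galore 0.3.7, and the build GRCm38 (mm10). How reads were assigned to genes, and with which strand setting, is not stated there, so overlapping genes may share reads. A second deposited table gives, per the file headers, the authors' mean normalized signal, log2 fold change, test score and p-values for each gene, and served for description alone.

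Counts were tested with edgeR 4.0.16 in R 4.3.3 (quasi-likelihood F-test, TMM, filterByExpr, Benjamini-Hochberg over 17381 genes). The SE is the absolute log2 fold change over the square root of F. Depth was 18802471 to 27793375 counts. No library was a copy: pairs within a group had a chi-square of 11.9 to 108.9, averaged over genes. Ratios used exact permutation tests (SciPy 1.17.1). Alternatives used DESeq2 1.42.0 and limma 3.58.1, among others given below. The test was tried on simulated data with equal numbers of raised and lowered genes, whereas more genes fell than rose here. The outcome is not given and is no support for the calls.

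The 8 members and 19 gene lists were chosen with earlier results of these data known. Named genes were the members, Igf1r, Omp, up to 4 genes of smallest p per pathway or paralog list, and 2 profile neighbours per member, with exceptions stated. The values of 1 gene of these lists are not reported here.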

Additional observations from a re-analysis of the deposited data

Results flagged for a closer look

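Of 22 sets of 4 values screened (7 members and 4 ratios in each group), 3 had a library far from the rest of its group, where chance gives about 1 in 20. Ano2 stood at 284 CPM in OMP_IGF1R 17, against 219 to 228 CPM in the other libraries of that title, and without this library its log2 fold change was -0.98. The ratio of Cnga4 to Cnga2 reads was 0.404 in OMP_IGF1R 17, against 0.362 to 0.368 in the others, and without it the log2 difference was -0.40. The ratio of Ano2 to Cnga2 reads was 0.515 in IGF1R_flfl 13, against 0.465 to 0.467 in the others, and without it the log2 difference was -0.18. OMP_IGF1R 17 also held muscle RNA (469 CPM) and IGF1R_flfl 13 had the highest gland sum (28432 CPM), whose part was not tested.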

How the results depend on the processing

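Ano2, Cnga4 and Cngb1 kept their direction and call under all 16 alternatives, and Cnga2 and Stoml3 under 15, the exception being the scaling to mature neuron genes. Under that scaling 3 members were lower and 1 higher, Slc24a4 changed sign to 0.18 and Slc12a2 to 0.44, 161 genes were lower and 12533 higher over all genes (98.7% higher, against 34.5%), and 3 pathway genes were lower and 29 higher, which follows from moving all genes. Slc12a2, never called by TMM, also changed sign with upper-quartile factors (0.0057), and lay at -0.061 to 0.0060 over the fits without 1 library (0.0045 without IGF1R_flfl 13). Pathway genes called higher numbered 1 with upper-quartile factors (Slc12a4), 2 by DESeq2 and 2 by limma voom (Slc12a4 and Ano7), and 1 without IGF1R_flfl 2 and OMP_IGF1R 17 together. DESeq2 called 2140 genes, 804 of them higher, against 1425 by edgeR. Without 1 library, 5 to 6 members, 380 to 964 genes over all and 8 to 14 pathway genes were lower, and 0 members, 189 to 513 genes and 0 to 2 pathway genes were higher. The ratios kept their signs, with log2 differences over those fits of -0.40 to -0.34 (Cnga4), -0.25 to -0.18 (Ano2), -0.14 to -0.07 (Cngb1) and 0.29 to 0.48 (Slc24a4). Fewer libraries cannot bring a permutation p under 0.05 there. No paired analysis was possible because the groups share no replicate numbers. Depth limits Best2 and the retinal paralogs alone.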
